A study of Homo sapiens with 4 samples.

Results

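This section describes N6-methyladenosine (m6A) on the transcripts of 8 immediate early and inducible regulators, EGR1, MYC, CEBPB, BHLHE40, IER2, IER3, IER5 and DUSP1, in 16-HBE cells, a human line of bronchial epithelium. For each gene a window of a few kilobases on its own strand (hg19) was set, and every listed interval of m6A enrichment that shared at least 1 bp with it was taken. The windows held 3 of 11038 intervals in one condition and 4 of 13691 in the other. Both conditions had received 5% cigarette smoke extract (CSE) for 24 h. One is labelled WT and is called CSE here, and the other had METTL3 knocked down by siRNA. No condition without smoke extract was analysed, and the labels name no control siRNA, so METTL3 reduction and transfection cannot be told apart. The 4 samples were an antibody (IP) and an input library per condition. The design text gives 3 replicates per condition, but 1 interval list per condition was analysed, so no value has a replicate error and no test between the conditions was possible. The genes were selected on the intervals and scores of these same lists, so their pattern is a description.

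Immediate early genes are switched on within minutes of a growth factor, stress or other stimulus from transcription factors already present in the cell, and most of their mRNAs are short-lived. METTL3, the catalytic part of the m6A writer complex, methylates RNA mostly at the A of GGAC and related motifs, often near stop codons and in long exons. Reader proteins that bind m6A can speed the decay of an mRNA or promote its translation. In MeRIP-seq, RNA fragments bound by an m6A antibody are sequenced beside input RNA, and an interval is listed where the IP exceeds the input.

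The sequences below are a selection of the GGAC-type matches that the listed and unlisted transcripts carry. They show the bases around each printed match, and they were not placed under the hg19 intervals described further on. They come from GENCODE release 29 transcripts (GRCh38) and are written 5′ to 3′ in DNA letters, with the 5-base match in capitals. Distances run from the first base of the stop codon to the A of the match. For IER3 all 4 GGACT sites are given, for EGR1 the 3 matches nearest the stop codon, and for CEBPB, BHLHE40, IER2, IER5 and DUSP1 the nearest GGACT. The printed form was thus set by the selection, so the sequences cannot be used to compare motif forms between genes. The transcripts printed with GGACT also carry GGACA and GGACC. For IER2 and CEBPB, matches ending in A or C lie nearer the stop codon than the printed GGACT. All IER3 regions and distances are those of the transcript model IER3-202. The distances do not hold for the spliced model IER3-201. In that model the first GGACT site is coding, and the others are exonic but not coding. No MYC sequence is printed.
EGR1, coding exon 2, 41 nt before, chr5:138468028-138468048 plus strand: gggctttcGGACAtgacagca
EGR1, coding exon 2, 15 nt before, chr5:138468054-138468074 plus strand: ttctcccaGGACAattgaaat
EGR1, 3′ UTR, 59 nt after, chr5:138468128-138468148 plus strand: gacttaaaGGACAggaggagg
CEBPB, 3′ UTR, 371 nt after, chr20:50192430-50192450 plus strand: tgtacacgGGACTgacgcaac
BHLHE40, 3′ UTR, 209 nt after, chr3:4983889-4983909 plus strand: ttggtataGGACTttaaagct
IER2, 3′ UTR, 162 nt after, chr19:13154008-13154028 plus strand: ccggagagGGACTctgtcccc
IER3, 3′ UTR of IER3-202, 116 nt after, chr6:30743978-30743998 minus strand: gagccctcGGACTacgctctg
IER3, 3′ UTR, 260 nt after, chr6:30743834-30743854 minus strand: cccaactgGGACTtccgaggc
IER3, 3′ UTR, 569 nt after, chr6:30743525-30743545 minus strand: gctttgtgGGACTggtggaag
IER3, 3′ UTR, 625 nt after, chr6:30743469-30743489 minus strand: aatggggaGGACTcgggtggg
IER5, coding, 145 nt before, chr1:181089729-181089749 plus strand: gtttctcgGGACTcctacgga
DUSP1, 3′ UTR, 41 nt after, chr5:172768713-172768733 minus strand: tcccattgGGACTccatgctc

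Of the 8 genes, 2 had an interval in both lists, 1 in the CSE list alone, 2 in the knockdown list alone and 3 in neither. Genes in both lists were EGR1 and IER3. BHLHE40 was listed in CSE alone, and CEBPB and IER5 with knockdown alone. IER2, MYC and DUSP1 had none. Condition-specific intervals, those sharing no base with the other list on their strand, were thus 1 of 3 in CSE and 2 of 4 with knockdown. Over the whole lists the condition-specific share was 19.9% in CSE and 35.5% with knockdown. Among intervals with a score of 3100 or more it was 5.45% and 7.52%. Since the genes were chosen by their values in these lists, nothing is read from that comparison.

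**Figure D1:**
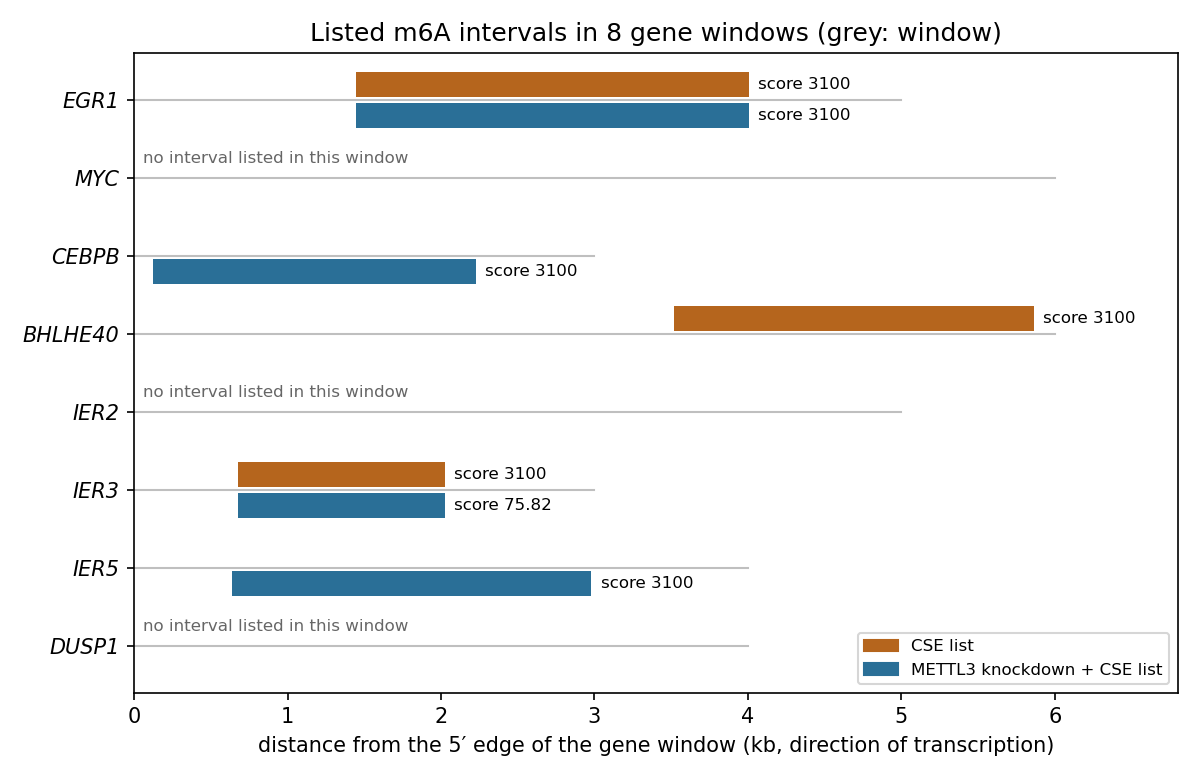
Intervals listed in each of the 8 gene windows, drawn to scale in kb from the 5′ edge of the window, with the CSE list above and the METTL3 knockdown list below each grey window line and the authors' score beside each bar. EGR1 and IER3 have bars with the same borders in both lists, BHLHE40 has one in the CSE list, CEBPB and IER5 have one in the knockdown list, and MYC, IER2 and DUSP1 have none.

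All 7 member intervals were wide, from 1350 to 2559 nt, where the median width was 285 nt in the CSE list and 218 nt in the knockdown list. Intervals of 1000 nt or more made up 23.4% of the CSE list and 19.4% of the knockdown list. The authors' score, whose scale is not stated, was 3100 for 6 of the 7 intervals. That exact value was shared by 620 CSE and 1113 knockdown intervals, so intervals at 3100 cannot be ranked among themselves. A score of 3100 or more was held by 5.98% of all CSE intervals and 8.55% of all knockdown intervals, and by 10.7% and 15.5% of those of 1000 nt or more. Scores rank an interval within its own list. Where scores of both lists stand side by side below, they are separate values of the 2 lists, and the difference is not a measured change in methylation.

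**Figure D2:**
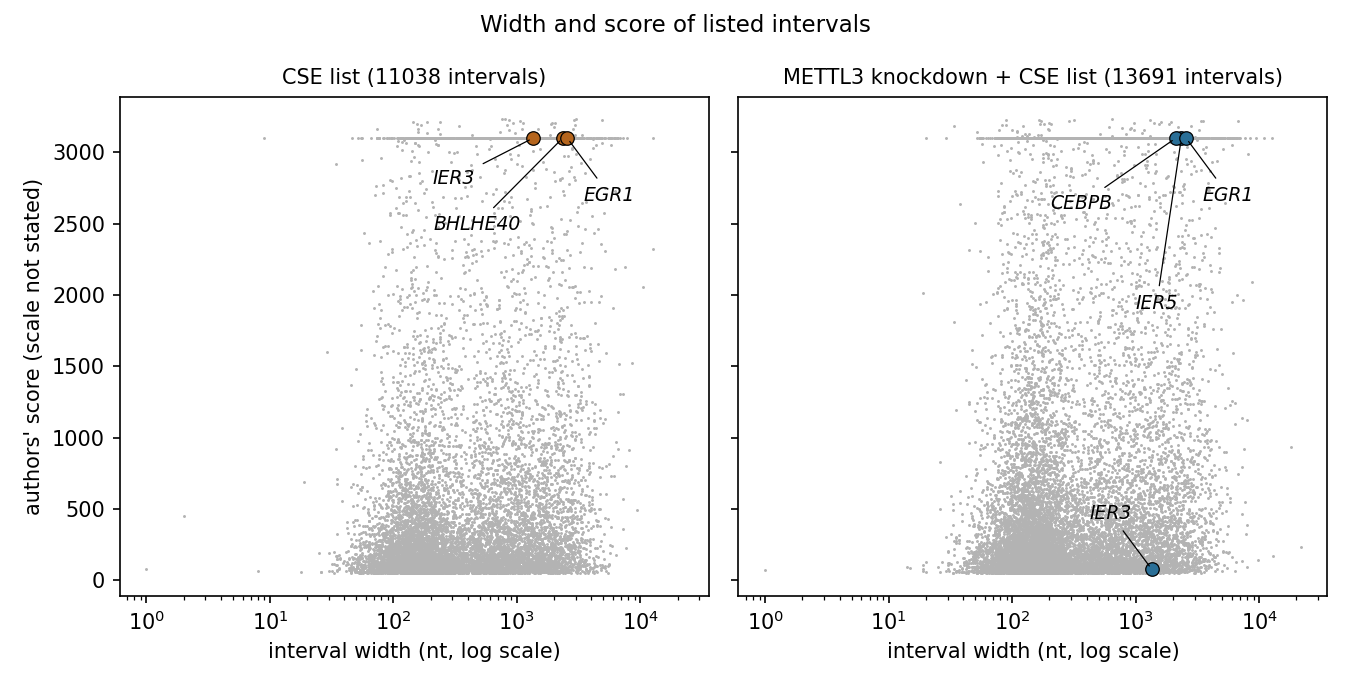
Width (nt, log scale) and authors' score of every interval in the CSE list (left, 11038) and the METTL3 knockdown list (right, 13691), as grey points, with the intervals of the 8 genes as large points. The genes' intervals lie among the wide ones and at 3100, except the IER3 interval of the knockdown list at 75.82.

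Among the transcription factors, EGR1, a zinc finger factor induced by growth factors and stress, had the widest interval of the set. It lay on the plus strand of chromosome 5 (chr5:137802446-137805004, hg19) with the same start and end in both lists, was 2559 nt wide and scored 3100 in each. Its width equals that of exon 2, the last exon of the EGR1-201 transcript, to the base. Each list held 1 interval of exactly that width, the EGR1 interval itself. EGR1 had no GGACT in its 3138 nt transcript, although 88.8% of 19684 protein-coding genes had at least 1 in their longest transcript. It held 8 GGACA and 2 GGACC, of which 6 and 1 were in exon 2, including the 3 matches printed above.

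CEBPB, a basic leucine zipper factor of inflammatory and acute phase responses, was listed with METTL3 knockdown alone. Its interval (chr20:48807120-48809227, plus strand) was 2108 nt wide and scored 3100. Within 317630 nt no CSE interval was listed on that strand, a larger gap than for 87.8% of the 4855 knockdown-only intervals, whose median gap was 16859 nt. The nearest other knockdown interval on that strand was also 317630 nt away, so the gap is not particular to the CSE list. CEBPB is an intronless gene, and its RefSeq span (GRCh38.p14) is also 2108 nt, while the GENCODE model CEBPB-201 is shorter, at 1956 nt. The interval is thus as wide as that span and does not resolve a site within it. The width alone does not identify the gene, since 5 knockdown intervals and 1 CSE interval were 2108 nt wide. Of the 4 GGACT sites of CEBPB-201, 2 were coding.

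BHLHE40, a basic helix-loop-helix repressor of the circadian and hypoxia responses, showed the opposite listing. The CSE list held an interval of 2345 nt (chr3:5024521-5026865, plus strand) with a score of 3100, and the knockdown list held none on that strand within 299038 nt. That gap was larger than for 87.8% of the 2200 CSE-only intervals, whose median was 21858.5 nt. The nearest other CSE interval on that strand was also 299038 nt away, so the gap is not particular to the knockdown list. Among CSE intervals of 1000 nt or more with a score of 3100 or more, 7 of 278 were CSE-only, or 2.52%. The corresponding number with knockdown was 16 of 412, or 3.88%, and includes CEBPB and IER5. The genes were chosen by their values in these lists, so nothing is read from these shares. The annotated exon closest in length to the BHLHE40 interval was the last of BHLHE40-201, at 2488 nt. That last exon held 3 of the 4 GGACT sites of the transcript. MYC, the growth-promoting helix-loop-helix factor, had no interval in either list, and its nearest listed interval on the strand lay 2297.4 kb from the window in CSE and 2377.9 kb with knockdown. Its MYC-207 transcript held 4 GGACT sites, 3 of them within 400 nt of the stop codon.

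Among the IER genes, IER3, a small stress-inducible protein that modulates cell survival, was listed in both conditions with scores at opposite ends of the range. Its interval on the minus strand of chromosome 6 (chr6:30710976-30712325, hg19) had identical borders in both and a width of 1350 nt. In the CSE list it scored 3100, with 0.362% of that list higher. In the knockdown list it scored 75.82, with 12.7% of that list lower. Identical borders in both lists and a CSE score of 3100 or more were found for 536 intervals. Of these, 486 (90.7%) also reached 3100 with knockdown, and IER3 was the 1 interval below 100. The next lowest had 129.55 and 131.22. Over all 7258 intervals with identical borders, the knockdown score was the higher one for 5312 and the lower one for 1488. The next intervals on the same strand, chr6:30675343-30676134 and chr6:30679651-30681131, scored 2366.62 and 1056.94 in CSE and 3100 and 2158.99 with knockdown. IER3 was selected with these scores in view, and whether its RNA level, its methylation or the calling differed was not tested.

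**Figure D3:**
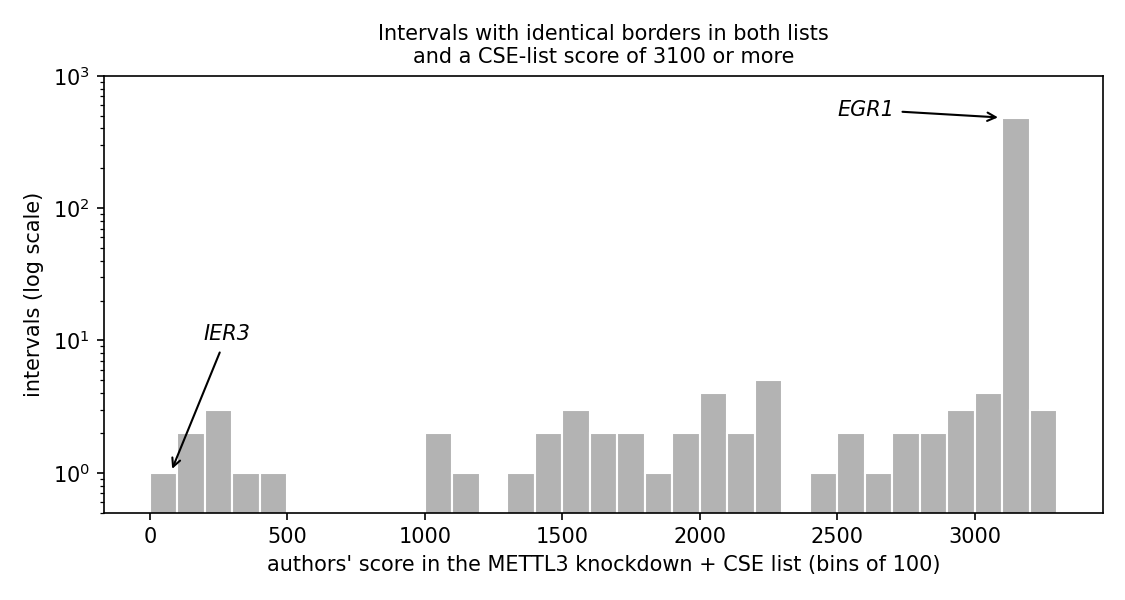
Authors' scores in the METTL3 knockdown list (bins of 100, x axis) of the 536 intervals that have identical borders in both lists and a CSE score of 3100 or more, counted on a log y axis. Most stand at 3100, EGR1 among them, and IER3 is the single interval below 100.

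The IER3 width equals the single exon of IER3-202, a model that keeps the intron spliced out of IER3-201. The interval therefore has the length of the unspliced model. That width was held by 1 CSE and 2 knockdown intervals, the IER3 interval included. All 4 GGACT sites of IER3-202 lie after its stop codon, and the first of them is coding in IER3-201. At 2.96 GGACT per kb the transcript exceeded 98.0% of protein-coding genes.

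IER5, a protein that acts with heat shock factor 1, was listed with knockdown alone. The interval (chr1:181057638-181059979, plus strand) was 2342 nt wide and scored 3100. No CSE interval was listed on that strand within 992572 nt, a larger gap than for 96.2% of the knockdown-only intervals. Among knockdown-only intervals with a score of 3100 or more, no other had a gap as large. IER5 was selected from these same lists, so nothing is read from that rank. The nearest other knockdown interval on that strand was also 992572 nt away, so both lists were sparse there. IER5 is also intronless, but its GENCODE transcript IER5-201 is 4188 nt long, 1846 nt longer than the interval. IER5-201 held 6 GGACT sites, 4 of them in the 3′ UTR.

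IER2, a nuclear immediate early protein, had no interval in either list, although intervals were listed around it. Within 100 kb of its window there were 5 in CSE and 7 with knockdown, the nearest on its strand 51.4 kb away in CSE and 31.7 kb with knockdown. The IER2-203 transcript held 7 GGACT sites in 2934 nt, more than any other of the 8 transcripts, and 5 of them lay within 400 nt of the stop codon.

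DUSP1, a dual-specificity phosphatase that switches off MAP kinases, was listed in neither condition, and no interval of either strand lay within 100 kb of its window. The nearest on its strand was 428.1 kb away in CSE and 421.7 kb with knockdown. DUSP1-201 held 4 GGACT sites in 2019 nt, or 1.98 per kb, 2 of them coding and 2 in the 3′ UTR.

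The presence of GGACT did not separate listed from unlisted genes among these 8. The median was 1.84 GGACT per kb of transcript, against 0.93 over all protein-coding genes, and the unlisted IER2, MYC and DUSP1 had 2.39, 1.69 and 1.98 per kb. Those with an interval in either list ranged from 0 in EGR1 through 1.15 in BHLHE40, 1.43 in IER5 and 2.04 in CEBPB to 2.96 in IER3. GGACT was searched on the sense strand. A match is a description of letters and does not locate a methylated base.

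**Figure D4:**
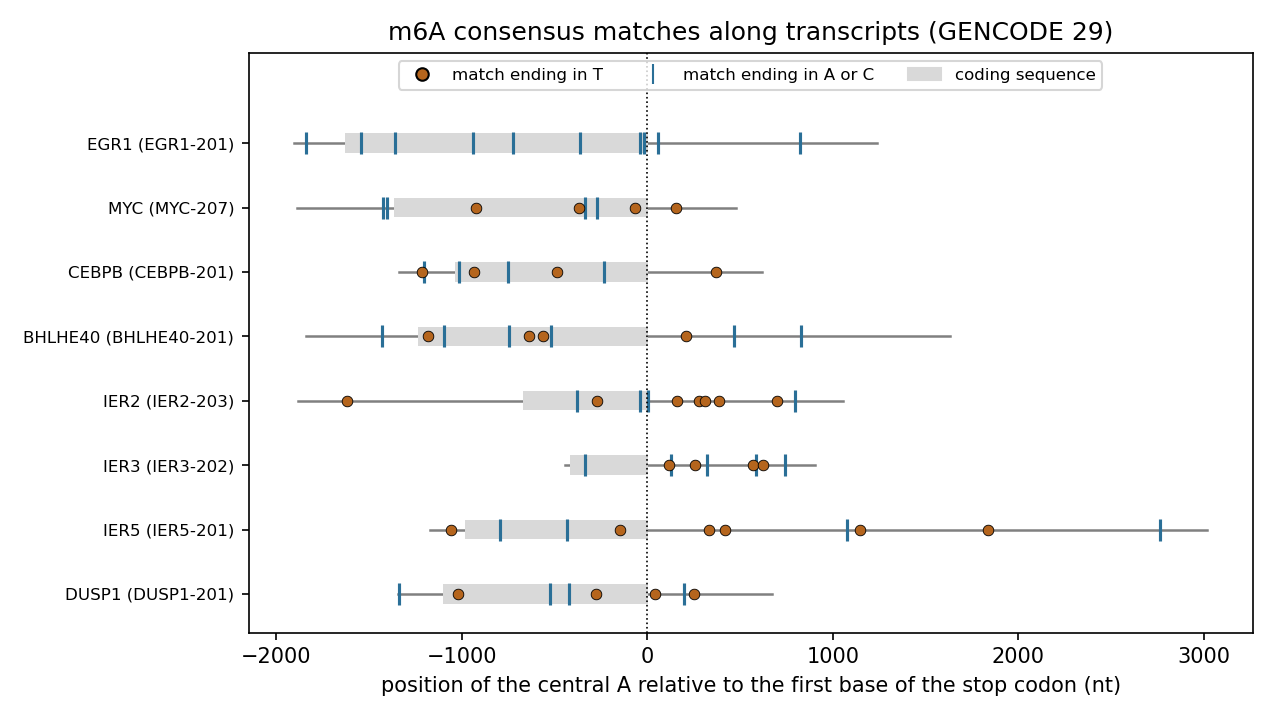
Positions of m6A consensus matches along 1 GENCODE 29 transcript per gene, in nt from the first base of the stop codon (dotted line), with the coding sequence as a grey bar. Circles are matches ending in T and ticks are matches ending in A or C. EGR1 has ticks but no circle, and IER3 has circles only after the stop codon. The listed CEBPB, BHLHE40 and IER5 and the unlisted MYC, IER2 and DUSP1 have circles on both sides of it.

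For an unlisted gene, little m6A, little RNA and a call left out of the deposited list cannot be told apart. The lists hold no expression values, so METTL3 itself and the epithelial identity of the cells were not checked. Interval names carry running numbers. Over the whole lists 77.9% of these numbers are missing in CSE and 72.0% with knockdown, so gaps are not particular to these windows. Between the listed intervals flanking the windows, 23 numbers were unlisted for CEBPB and 21 for IER5 in CSE, and 14 for BHLHE40 with knockdown. The list that held the interval also lacked numbers there, 11 for CEBPB and 6 for IER5 with knockdown, and 9 for BHLHE40 in CSE. Flanking intervals could be on either strand and far away. In neither list did one lie within 100 kb of the MYC, DUSP1 or BHLHE40 window, the BHLHE40 interval itself aside. Unlisted numbers are therefore not placed inside a window. For the genes in neither list the unlisted numbers in CSE and with knockdown were 7 and 2 for IER2, 29 and 31 for MYC, and 17 and 9 for DUSP1.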

How the data were processed

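MeRIP-seq of 16-HBE cells gave 1 interval list per condition. The submitters' processing notes name HISAT2 2.0.4 and the build hg19. Interval names start with MACS, per the deposited files. The caller's version and settings, and any pooling of replicates, are not stated in the labels or files. The value used is the score the authors deposited for each interval. Depth is unknown, since the lists hold no read counts.

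Starts were converted to count from 1. Intervals sharing at least 1 bp on the same strand counted as overlapping. Genes were located by the windows, not by an hg19 annotation, which was not used here, so other immediate early genes were not located. All 8 genes are named. Interval widths were compared with exon lengths of the same gene in GENCODE release 29 (tolerance 0 nt), and no position was carried between builds. GGACT was counted in the transcript with a matching exon, otherwise in the longest protein-coding one. Gene spans are from RefSeq (GRCh38.p14). Overlap functions were tested on simulated intervals. Python 3.11.15 and pandas 2.3.3 were used. Members, lists and measures were chosen with earlier results of these data known. Alternatives were the upper 50% of each list by score, either strand, windows extended by 10 kb, 50% reciprocal or identical overlap, other exon tolerances and other motif forms.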

Additional observations from a re-analysis of the deposited data

How the results depend on the processing

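Of 26 values under alternatives, 24 stayed within 1.5 times the reported one and 2 moved. Most of these settings could not have changed a value here, so the tally does not measure robustness. With the upper 50% of each list by score, the IER3 interval of the knockdown list was left out, so the CSE-only intervals rose from 1 to 2 by construction. With GGAC in place of GGACT, the median over the 8 transcripts was 4.16 per kb, a commoner motif whose median over all genes was 3.77. Either strand and windows extended by 10 kb gave the reported counts of genes, of intervals and of condition-specific intervals. No window held an interval on its other strand, and the nearest outside a window on its strand lay 28.9 kb away. Stricter overlap, run for the condition-specific intervals, gave their reported counts. Member intervals either had identical borders in the other list or shared no base with it, so this was fixed in advance. The longest-transcript rule picked the same 8 transcripts. Widths matched an exon for 4 of 7 intervals, also at a tolerance of 5 nt, and for 5 when the RefSeq gene span, an alternative chosen after seeing the data, was included. The 4 are the EGR1 and IER3 intervals, each counted once per list, and the 7 hold 5 different intervals. No paired analysis was possible because each condition has 1 interval list. Read depth was unknown, so what it limits could not be assessed.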

Other observations

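Near EGR1 the knockdown list held further intervals. A 1233 nt interval on the minus strand (chr5:137890571-137891803, hg19) scored 3100 and was knockdown-only, as were a 303 nt interval on that strand (chr5:137878323-137878625), with a score of 142.12, and a 125 nt interval on the plus strand (chr5:137715273-137715397), with 165.75. A 600 nt interval on the plus strand (chr5:137721711-137722310) was listed in both, with 232.71 in CSE and 1122.73 with knockdown. The reverse of the IER3 listing, a knockdown score of 3100 or more and a CSE score below 100 at identical borders, was found for 2 of 934 intervals.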
